A study of Homo sapiens with 10 samples.

Results

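Clones G10 and H3 are both SHIP2 knock-out lines of the same oesophageal carcinoma, and their transcriptomes were set directly against each other. Of the 58302 genes in the deposited table, 16877 had at least 1 CPM (reads assigned to the gene, scaled so that each library sums alike) in 2 or more of the 4 libraries of these clones, and these genes made up the comparison. The 4 libraries, 2 per clone, were part of a series of 10. Because both clones carry the same intended knock-out, the comparison asks how far 2 lines of one design differ, starting with the targeted transcript itself.

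SHIP2, the product of INPPL1, is a lipid phosphatase that takes a phosphate off the messenger made by PI3-kinase at the plasma membrane. The kinase AKT and many adaptor proteins bind this messenger and its SHIP2 product, so the enzyme sits between growth factor receptors and the programmes of growth, metabolism, adhesion and survival below them. In squamous epithelium and its carcinomas the same receptors act beside p63, Notch, YAP and NRF2, which set keratin production, adhesion and the handling of oxidants.

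All libraries came from KYSE-410, an established line of human oesophageal squamous cell carcinoma, and none of the groups is labelled with a drug treatment. G10 and H3 were made by transfection with a CRISPR/Cas9 nickase vector directed at the SHIP2 gene together with a GFP reporter, after which sorted cells were grown as single clones and picked by Western blot for SHIP2. The control was 1 colony that received the same vector without a guide RNA, and 2 further knock-out clones, D4 and G4, completed the series. Each group is thus 1 clone or colony with 2 libraries of total RNA. The labels do not say whether these were separate cultures, so each p-value measures only the spread between these libraries, which may be technical.

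Depth, estimated from the steps in the deposited values, was 13214403 and 14254070 reads in the G10 libraries and 11961066 and 13326590 reads in those of H3. A gene listed at 0 had no read assigned. By counting error alone its true level could still be up to 3 reads, or 0.21 to 0.251 CPM in these 4 libraries, called the floor below. The G10 libraries stood farther apart than those of any other group: among genes averaging 5 CPM or more in a group, the median variance between them was 5.24 times that expected from counting, against 1.91 times in H3 and 1.74 to 2.69 times in the other 3 groups. The difference between G10 replicate 2 and replicate 1 ran with the GC content of the transcripts across genes (r = 0.578), and the difference between H3 replicates ran the other way (r = -0.41). The median GC content of the 200 genes most raised in G10 replicate 2 over replicate 1 was 65.5%, against 48.2% for all such genes. The G10 minus H3 difference itself had r = -0.064 with GC content. These correlations are across genes, which are not independent. Among genes averaging 5 CPM or more, those called higher in G10 had a median GC content of 46% and those called lower 50.6%. Without G10 replicate 1 this order turned, at 51.9% and 48.7%, and without G10 replicate 2 it widened, at 45.1% and 53%.

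Squamous identity was checked on markers. TP63, the master regulator of squamous cells, was listed at 86.9 and 83.7 CPM in G10 against at 119 and 120 CPM in H3, and PERP and SFN lay above 100 CPM in all 4 libraries. KRT5 was low, with 10.5 and 8.24 CPM in the G10 libraries against 17.1 and 19.4 CPM for H3, while KRT14 and LY6D were near 0 in both clones. The desmosomal cadherin DSG3 went the other way, with 9.19 and 7.94 CPM in the G10 libraries against 5.65 and 5.35 CPM for H3 (log2 difference 0.56; adjusted p = 0.0151, limma). Markers of leukocytes, endothelium and neural cells summed to 1.45 to 14.1 CPM per list in each of these libraries, with CD3E at 0 throughout; most of the leukocyte sum was CD68, at 8.09 and 5.85 CPM in G10 and 13.1 and 13.7 CPM in H3. Among 7 fibroblast markers 5 were at 0 to 0.5 CPM, DCN among them, and COL1A1, a collagen chain, was at 11.1 and 14.49 CPM in G10 against 16.5 and 14.04 CPM in H3. LUM, which encodes the matrix proteoglycan lumican, was at 29.9 and 26.4 CPM in G10 and 119 and 116 CPM in H3. The 10 markers of glandular epithelium summed to 15.59 to 20.54 CPM per library. VIL1 led them, at 10.7 and 10.3 CPM in G10 and 9.14 and 9.79 CPM in H3, near the level of KRT5 in G10. TFF2 was at 6.15 and 5.45 CPM in G10 and 3.85 and 3.20 CPM in H3, and the others at 2.05 CPM or less.

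The transcript of the targeted gene separated the clones. INPPL1 (ENSG00000165458, chromosome 11, 72223701 to 72239105, plus strand, hg38) was listed at 9.49 CPM in both G10 libraries and at 88.1 and 85.3 CPM in those of H3. The clones did not overlap, and the H3 mean was 9.13 times that of G10. On the log2(CPM + 1) scale, used for every difference below, G10 lay 3.06 lower, or -3.06 ± 0.10 (SE; adjusted p = 1.57e-08, limma). The control mean was 145 CPM, D4 stood at 88.4 CPM and G4 at 64.9 CPM, so H3 lay among the other knock-outs and G10 below all 4 other groups. Genes around INPPL1 were on balance higher in G10 than in H3 (median 0.36), and with that median subtracted the difference was -3.42. The RNA level does not report on the protein, which was not analysed here.

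Across all genes, 2719 were higher in G10 (16.1% of 16877) and 3338 were lower (19.8%) at an adjusted p under 0.05, by limma with Benjamini-Hochberg adjustment. At 2-fold or more these numbers were 287 (1.7%) higher and 525 (3.11%) lower, and the median difference over all genes was -0.01. Without H3 replicate 1 the calls numbered 1773 and 2162, and without H3 replicate 2 they numbered 2053 and 2217. Without G10 replicate 1 the genes higher by 2-fold or more numbered 534. For the 287 genes higher by 2-fold or more, the control level lay nearer G10 in 201 and nearer H3 in 86. For the 525 lower genes it lay nearer G10 in 355 and nearer H3 in 170, so at most of these genes H3 was the clone farther from the control. The counts of list members below stand beside the 16.1% higher and 19.8% lower over all genes. Some were near these shares, such as higher calls of keratins (15.4%), nuclear oxidative phosphorylation (14.6%) and imprinted genes (17.6%). Lower calls of WNT genes (17.2%), mitotic genes (25%) and endoplasmic reticulum chaperones (26.1%) were also not far from 19.8%. Counts below of members at which G10 or H3 was the lowest or highest of the 5 groups were made only for called list members. No share over all called genes was computed for them. A call already sets G10 and H3 apart, so such an extreme position is more likely at these genes.

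**Figure D1:**
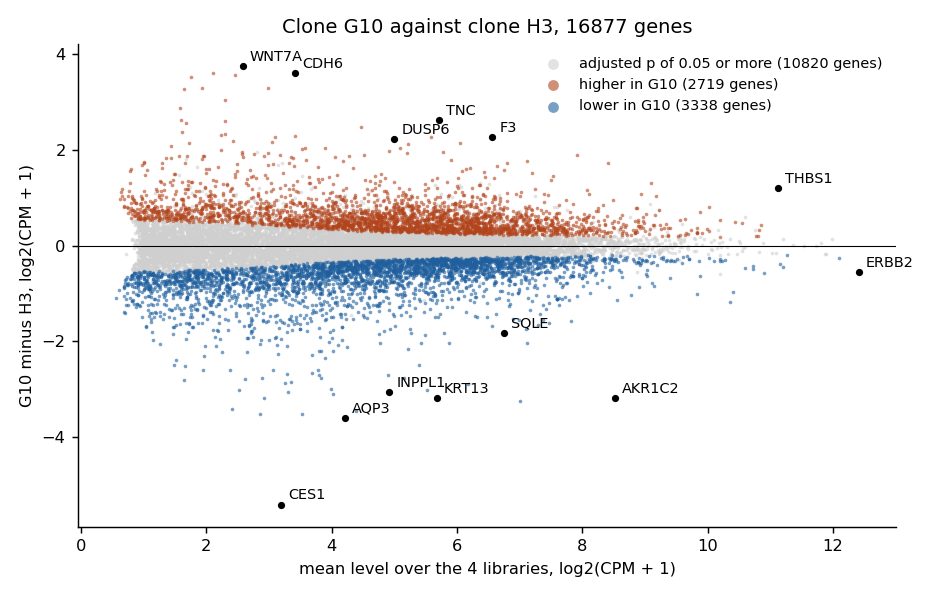
Difference between clones (G10 minus H3, log2(CPM + 1)) against the mean level over the 4 libraries for 16877 genes, 1 point per gene. Red points are the 2719 genes higher in G10, blue points the 3338 genes lower in G10 at an adjusted p under 0.05 by limma; CES1 lies lowest and WNT7A highest among the labelled genes.

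The largest deficits of G10 relative to H3 were led by CES1, an esterase that hydrolyses drugs and lipid esters. It was listed at 0.5 and 0.3 CPM in G10 and at 63.0 and 54.7 CPM in H3. The clones did not overlap, and the difference was -5.42 ± 0.15 (SE; adjusted p = 5.55e-09, limma), but the control stood at 4.82 CPM, well below H3. AQP3, the water and glycerol channel of squamous basal cells, stood at 4.40 and 4.25 CPM in G10 against 70.8 and 56.7 CPM in H3 (-3.60), and here the control, at 54.2 CPM, was close to H3. KRT13, the keratin of the suprabasal oesophagus, stood at 17.7 and 14.4 CPM against 166 and 142 CPM (-3.19), again with a control near H3 at 135 CPM. Its annotated locus overlaps other transcripts, and how their reads were divided is not given in the sources used here.

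Enzymes and signalling genes made up the remainder. CYP1B1, a cytochrome P450 that oxidises polycyclic hydrocarbons and oestrogens, was at 13.99 and 16.4 CPM in G10 and 133 and 128 CPM in H3 (-3.02; control 166 CPM). The aldo-keto reductases AKR1B10 (-3.52), AKR1C3 (-3.25) and AKR1C2 (-3.19) were among the 15 largest such differences and are described with the NRF2 targets below. Signalling genes followed that were high in H3 and low in both G10 and the control. MCF2L, an exchange factor for small GTPases, was at 1.55 and 0.80 CPM in G10, 23.7 CPM in both H3 libraries and 1.67 CPM in the control (-3.53). RASGRP1, an exchange factor that loads RAS with GTP, was at 2.498 and 2.35 CPM in G10 and 23.6 and 31.6 CPM in H3 (-3.05; control 0.999 CPM). D4 lay above H3 at this gene, at 62.1 and 52.6 CPM. FRY, a scaffold of cell shape (-3.11), PADI4, which converts arginine to citrulline (-3.41), and the helix-loop-helix factor ATOH8 (-3.45) were likewise higher in H3 than in G10 and the control. D4 stood below H3 at these genes, at 17.0 CPM for FRY, 2.12 CPM for PADI4 and 27.5 CPM for ATOH8. DUSP2, a phosphatase of MAP kinases (-3.19), and SPP1, which encodes osteopontin (-3.01), completed the 15 with INPPL1.

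The largest differences in the other direction were led by genes nearly silent in H3. WNT7A, a secreted WNT ligand of epithelia, stood at 20.4 and 21.7 CPM in G10 and at 0.6 and 0.649 CPM in H3. All G10 libraries lay above all H3 libraries, with a difference of 3.76 ± 0.16 (SE; adjusted p = 3.99e-08, limma), and the control stood at 19.99 CPM, at the level of G10. CDH6, a cadherin of embryonic kidney and several carcinomas, was at 39.9 and 32.9 CPM against 1.95 and 2.15 CPM (3.61), below a control of 93.3 CPM. ME3, a mitochondrial malic enzyme, was at 11.1 and 9.89 CPM in G10 and listed at 0 in both H3 libraries, so no fold is given for it. IGF2, the fetal growth factor, was at 23.5 and 24.0 CPM in G10 and 1.35 and 1.70 CPM in H3 (3.30; control 52.1 CPM), and the read-through gene INS-IGF2, which overlaps it, ran alike (3.05).

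Genes of matrix and signalling followed. TNC, the matrix glycoprotein tenascin-C, was at 134 and 125 CPM in G10, 17.4 and 23.2 CPM in H3, beside 117 CPM in the control (2.63). COL5A1, a fibrillar collagen chain, was at 9.79 and 12.3 CPM in G10 against 0.2 and 0.25 CPM in H3, which is close to the floor of 3 reads (3.29; control 0.5 CPM). BDNF, a neurotrophin, was at 11.9 and 10.4 CPM against 1.05 and 0.949 CPM (2.60). TXNIP, the arrestin-like inhibitor of thioredoxin and of glucose uptake, was at 110 and 99.9 CPM in G10, 19.7 and 21.8 CPM in H3, beside 145 CPM in the control (2.28). KCTD12 (2.49), the kinases SGK1 (2.34) and CAMK4 (2.32), the channel subunit CACNG7 (2.30), the membrane protein TMEM200A (3.57) and the transcript AC097451.1 (3.62) completed the 15. The control lay above the H3 libraries for each of these 15 genes.

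**Figure D2:**
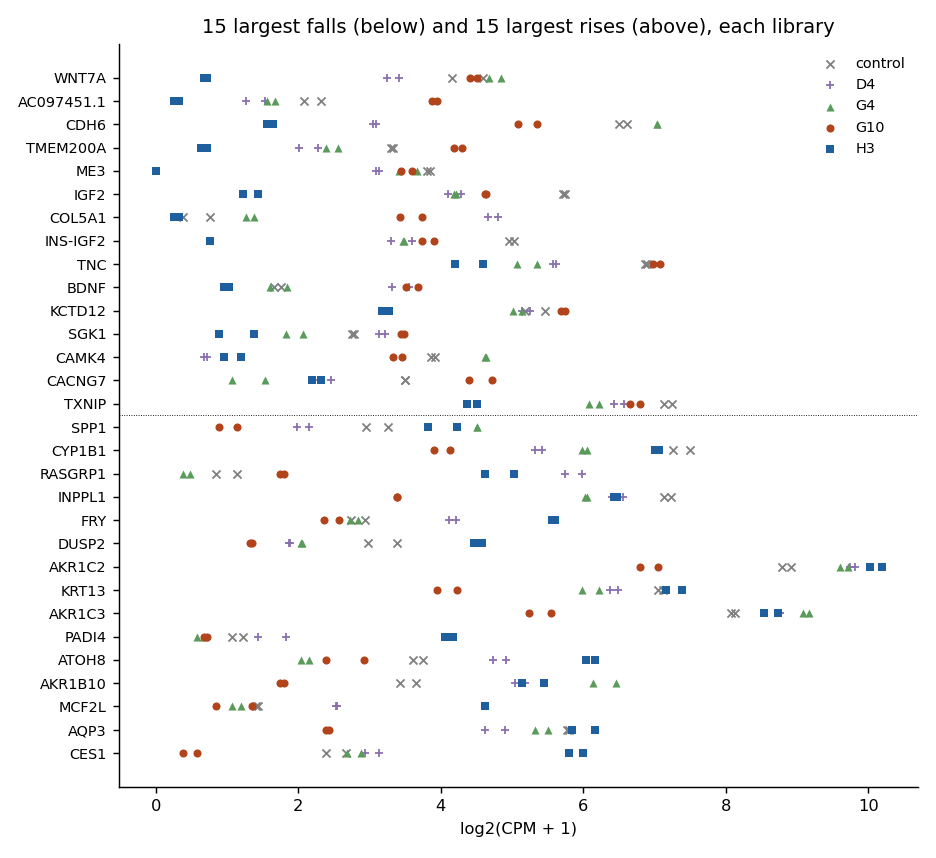
Level of the 15 largest falls (lower panel) and 15 largest rises (upper panel) in log2(CPM + 1), 1 marker per library, for the control colony and the 4 knock-out clones. G10 and H3 markers do not overlap for any of the 30 genes; the control sits with G10 for WNT7A and TNC, and with H3 for AQP3, KRT13 and CYP1B1.

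NRF2 targets were lower in G10. NRF2, the product of NFE2L2, is held in check by KEAP1 and, when freed by oxidants, binds antioxidant response elements to raise glutathione synthesis, NADPH supply, quinone and carbonyl reduction and iron storage. Of 32 listed genes, all tested, 28 were lower in G10, 1 was higher and 3 did not pass, with a median difference of -0.73 against -0.01 over all genes. Without H3 replicate 1 there were 21 lower members, and without H3 replicate 2 there were 23. In 22 of the 28, G10 was the lowest of the 5 groups of the series, and in 20 of them the control lay nearer H3.

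The upstream sequence of the members was read from RefSeq (GRCh38.p14), where 23 of the 32 had an entry, over the 250 bases before the annotated start. The core of the antioxidant response element, TGACNNNGC or on the other strand GCNNNGTCA, occurred in 8 of these 23, namely PGD, GCLM, UGT1A6, ME1, TXNRD1, GPX2, KEAP1 and CYP4F11. It occurs in 10.9% of all 35116 RefSeq promoters of the same length. That share is per promoter, whereas a member with several promoters counted once, so the shares are not in like units. A match is a description of the letters and not of binding. The members below are shown because they span a range of differences from CYP4F11 to GCLM, with the core in capitals: GCLM is chr1:93909431-93909680 on the minus strand, PGD chr1:10398814-10399063 on the plus strand, GPX2 chr14:64942746-64942995 on the minus strand and CYP4F11 chr19:15934868-15935117 on the minus strand, each written 5′ to 3′ along the gene.
GCLM: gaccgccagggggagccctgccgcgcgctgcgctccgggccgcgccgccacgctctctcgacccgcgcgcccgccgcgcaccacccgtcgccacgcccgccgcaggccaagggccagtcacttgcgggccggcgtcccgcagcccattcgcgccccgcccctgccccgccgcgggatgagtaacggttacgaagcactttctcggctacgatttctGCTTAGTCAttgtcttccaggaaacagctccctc
PGD: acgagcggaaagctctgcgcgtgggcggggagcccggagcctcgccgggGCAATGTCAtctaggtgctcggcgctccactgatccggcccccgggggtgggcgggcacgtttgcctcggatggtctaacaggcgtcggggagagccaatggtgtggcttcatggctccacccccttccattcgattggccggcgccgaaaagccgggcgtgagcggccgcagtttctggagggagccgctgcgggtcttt
GPX2: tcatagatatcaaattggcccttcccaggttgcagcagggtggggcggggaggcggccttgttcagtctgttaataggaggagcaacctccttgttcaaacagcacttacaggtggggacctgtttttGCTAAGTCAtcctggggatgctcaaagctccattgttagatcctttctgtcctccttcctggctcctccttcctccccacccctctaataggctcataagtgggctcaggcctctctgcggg
CYP4F11: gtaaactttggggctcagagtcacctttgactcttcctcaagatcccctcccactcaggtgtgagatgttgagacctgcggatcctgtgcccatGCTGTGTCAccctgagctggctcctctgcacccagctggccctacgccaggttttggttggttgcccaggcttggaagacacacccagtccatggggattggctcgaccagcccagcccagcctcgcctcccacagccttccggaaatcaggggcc

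Carbonyl-reducing enzymes of the aldo-keto reductase family had the largest differences. AKR1C2, which reduces steroids and lipid aldehydes, was at 132 and 110 CPM in G10, 1170 and 1043 CPM in H3, beside 460 CPM in the control. Its G10 libraries lay below all those of H3 (-3.19 ± 0.10, SE; adjusted p = 4.05e-08, limma). AKR1C3 was at 45.6 and 36.6 CPM against 423 and 372 CPM (-3.25), AKR1C1 at 11.3 and 9.99 CPM against 80.9 and 70.0 CPM (-2.71) and AKR1B10, a retinal and lipid aldehyde reductase, at 2.35 and 2.498 CPM against 42.6 and 34.4 CPM (-3.52). Reads shared between the near-identical AKR1C genes may be counted unevenly, and how they were treated is not given in the sources used here. Neighbouring genes of the AKR1C cluster on chromosome 10 were themselves lower in G10 (median -0.39).

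ALDH3A1, an aldehyde dehydrogenase abundant in surface epithelia, was at 27.1 and 23.9 CPM in G10 and 213 and 179 CPM in H3, with the control higher still at 445 CPM (-2.89). CYP4F11, a fatty acid hydroxylase, was at 1.70 and 0.999 CPM in G10, 15.99 and 14.3 CPM in H3, beside 36.002 CPM in the control (-2.79). HMOX1, which breaks down haem, was at 16.6 and 17.1 CPM in G10, 109 and 90.0 CPM in H3, beside 69.9 CPM in the control (-2.49). At each of these genes G10 was the lowest of the 5 groups. The glutathione peroxidase GPX2 was at 83.7 and 65.7 CPM against 258 and 245 CPM (-1.75), the conjugate exporter ABCC3 at 87.9 and 87.0 CPM against 281 and 274 CPM (-1.65) and GCLC, the catalytic subunit of glutathione synthesis, at 48.1 and 45.5 CPM against 139 and 129 CPM (-1.5).

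The differences were smaller along the rest of the pathway. NQO1, the quinone reductase, was at 317 and 291 CPM in G10 and 657 and 598 CPM in H3 (-1.04). Ferritin light chain, FTL, was at 923 and 828 CPM in G10 and 2107 and 1877 CPM in H3 (-1.18), whereas the heavy chain FTH1 differed by -0.29. The NADPH-producing enzymes PGD (-0.75) and ME1 (-0.54) and the pentose enzymes TKT (-0.63) and TALDO1 (-0.27) were lower in G10, as were TXNRD1 (-0.32) and GCLM (-0.30). NFE2L2 itself was at 106 and 96.2 CPM in G10 against 162 and 170 CPM in H3 (-0.71; adjusted p = 7.78e-05, limma), while KEAP1 did not pass (-0.22; adjusted p = 0.0883). The cystine carrier SLC7A11 differed by -0.10 and the exporter ABCC1 by -0.06, neither passing, and ABCC2 was the member higher in G10, at 2.35 and 2.00 CPM against 1.30 and 0.949 CPM (0.58), and no member was higher without G10 replicate 1 or without H3 replicate 2.

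Cholesterol synthesis showed the lowest median of the 42 lists. The pathway builds sterols from acetyl-CoA and is driven by SREBP2, the product of SREBF2, when membrane cholesterol is low. Of 26 tested genes 20 were lower in G10, 1 was higher and 5 did not pass, with a median of -0.91. At all 20 the control lay nearer G10 than H3. H3 was the highest of the 5 groups at 13 of them, and G10 the lowest at 9. Summed over the 27 listed genes, D4 (2864 and 2706 CPM) and H3 (2846 and 2790 CPM) were alike. G4 was at 2137 and 2130 CPM, G10 at 1617 and 1569 CPM and the control at 1585 and 1508 CPM. The core of the sterol regulatory element is TCACNCCAC or GTGGNGTGA. Counted per promoter it occurred in 0.883% of all promoters, and counted per member in 1 of the 19 with a RefSeq promoter. That member was SREBF2 itself (chr22:41832855-41833104, plus strand), shown with the element in capitals because the transcript followed the enzymes.
SREBF2: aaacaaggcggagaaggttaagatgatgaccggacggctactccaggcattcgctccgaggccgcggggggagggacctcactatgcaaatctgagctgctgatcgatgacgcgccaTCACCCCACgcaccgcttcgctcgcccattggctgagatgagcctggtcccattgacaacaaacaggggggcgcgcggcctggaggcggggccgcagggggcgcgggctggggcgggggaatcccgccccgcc

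SREBF2 was at 56.5 and 62.7 CPM in G10, 166 and 156 CPM in H3, beside 73.6 CPM in the control, with no overlap between the clones (-1.42 ± 0.09, SE; adjusted p = 6.00e-07, limma). SQLE, the epoxidase at an early committed step, was at 56.8 and 56.1 CPM against 205 and 197 CPM (-1.82). The control stood closer to G10, at 76.1 CPM, while D4 stood at 162 CPM and G4 at 151 CPM. TM7SF2, a sterol reductase, differed by -1.46, INSIG1, the brake on SREBP processing, by -1.39, and HMGCS1, an early enzyme of the mevalonate pathway, by -1.16.

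STARD4, a carrier of cholesterol between membranes, was the member higher in G10, at 6.84 and 6.70 CPM against 2.10 and 3.50 CPM (1.06). Among 10 tested genes of cholesterol efflux and LXR targets, 3 were higher and 4 lower, the latter 2 without H3 replicate 1 and 2 without H3 replicate 2. ABCA1, which exports cholesterol to apolipoproteins, was at 18.8 and 17.8 CPM in G10 and 3.85 and 4.90 CPM in H3 (1.85). NR1H3, the LXR-alpha receptor, was lower in G10, at 6.25 and 7.45 CPM against 18.1 and 18.2 CPM (-1.29).

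**Figure D3:**
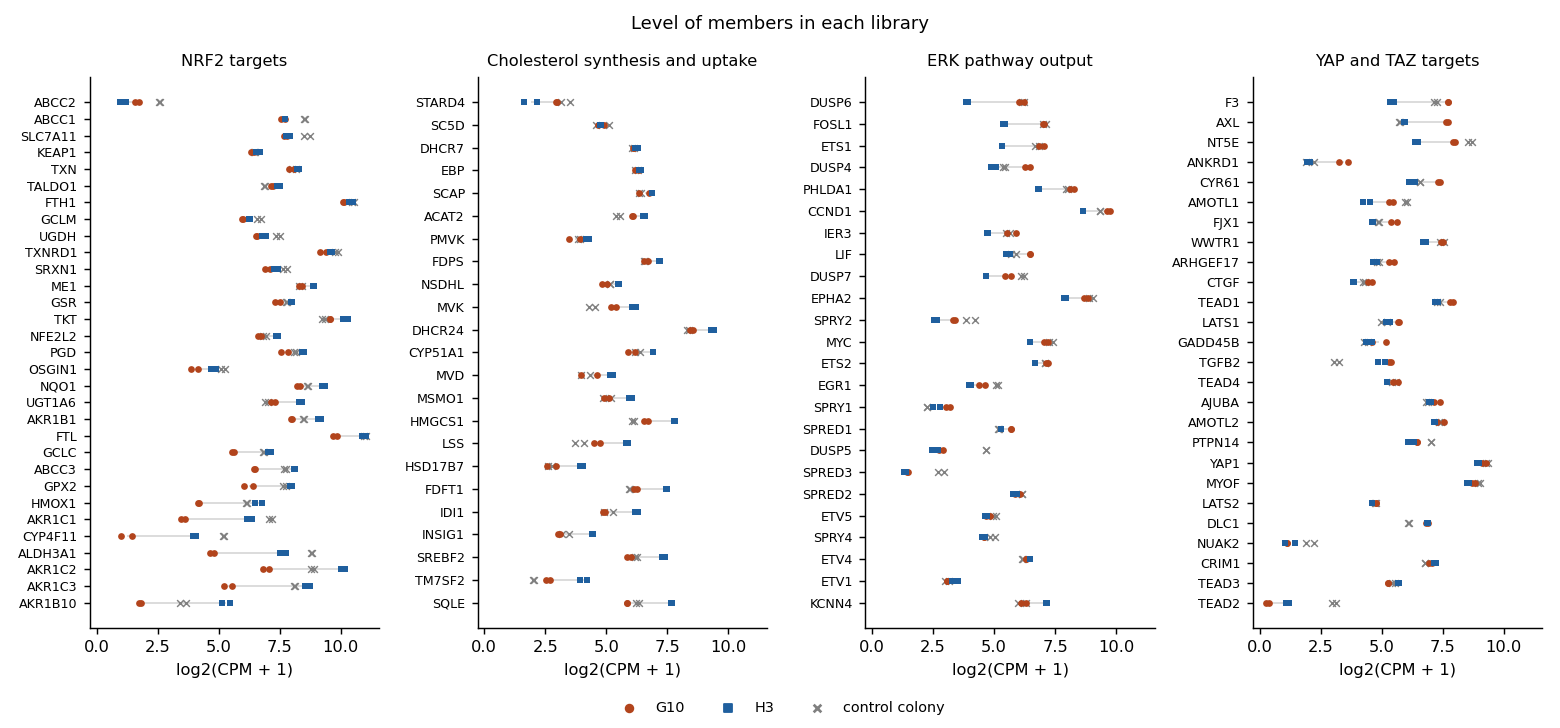
Level in log2(CPM + 1) of tested members of 4 gene lists, 1 marker per library of G10 (red circles), H3 (blue squares) and the control colony (grey crosses); grey lines join the clone means. G10 lies left of H3 at most NRF2 targets and cholesterol genes shown, and right of H3 at most ERK and YAP and TAZ genes.

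Fatty acid oxidation was lower in G10 as well. Of 22 tested genes 14 were lower and 1 was higher, with a median of -0.55, and at 13 of the 14 H3 was the highest of the 5 groups. DECR1, a reductase needed for unsaturated fatty acids, was at 13.1 and 12.5 CPM in G10 and 35.7 and 37.5 CPM in H3, with the control at 12.5 CPM (-1.45). The thiolase ACAA2 was at 37.3 and 36.1 CPM against 79.9 and 73.7 CPM (-1.04). CPT1A, the gate for long-chain fatty acids into mitochondria, was the member higher in G10, at 5.15 and 5.10 CPM against 1.80 and 2.00 CPM (1.08 ± 0.17, SE), and both clones lay far below the control at 223 CPM.

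Among 23 tested genes of fatty acid synthesis 10 were lower and 2 higher, with a median of -0.00, but the lower calls numbered 4 without H3 replicate 1 and 5 without H3 replicate 2, and the higher calls 6 without G10 replicate 1. DGAT2, which completes triglycerides, was at 38.4 and 37.7 CPM in G10 and 95.7 and 91.5 CPM in H3 (-1.28). ACSS2, which activates acetate, differed by -1.16 and the desaturase SCD by -0.68, while ACSL4, which activates arachidonate, was higher in G10 (0.64). FASN, the fatty acid synthase, was at 443 and 807 CPM in the G10 libraries and 515 and 449 CPM in H3, and the clones overlapped.

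Mitochondrially encoded transcripts were lower in G10. Of 15 genes, 11 were lower and none was higher, with a median of -0.39. At 10 of the 11 G10 was the lowest of the 5 groups. The control lay nearer G10 than H3 at 10 of the 11 as well. MT-RNR2, the large ribosomal RNA of the mitochondrion, was at 1026 and 920 CPM in G10 and 1855 and 1920 CPM in H3 (-0.96 ± 0.07, SE), and MT-RNR1 differed by -0.98. The messenger MT-CYB was at 1638 and 1509 CPM against 2324 and 2359 CPM (-0.57), with the control below G10 at 1395 CPM. Of 41 nuclear genes of oxidative phosphorylation 12 were lower and 6 higher, but the lower ones numbered 2 without H3 replicate 1, 4 without H3 replicate 2 and 19 without G10 replicate 1.

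Targets of ERK signalling were higher in G10. The ERK kinases, at the end of the RAS cascade, switch on phosphatases and Sprouty proteins that restrain the cascade, together with transcription factors of growth. Of 24 genes, all tested, 16 were higher in G10 and 1 was lower, with a median of 0.57, and at 13 of the 16 H3 was the lowest of the 5 groups. DUSP6, the cytoplasmic phosphatase that inactivates ERK, was at 63.4 and 73.4 CPM in G10, 13.4 and 14.1 CPM in H3, beside 71.5 CPM in the control. The clones did not overlap and the control level lay between the G10 libraries (2.23 ± 0.11, SE; adjusted p = 8.83e-08, limma), and its neighbours on chromosome 12 had a median of 0.51.

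FOSL1, an AP-1 subunit, was at 126 and 131 CPM in G10, 42.4 and 39.9 CPM in H3, beside 133 CPM in the control (1.62). ETS1, a transcription factor activated by ERK, was at 133 and 113 CPM against 39.6 and 39.4 CPM (1.61). CCND1, which encodes cyclin D1, was at 790 and 861 CPM against 404 and 402 CPM (1.03). FOSL1, ETS1 and CCND1 lie on chromosome 11, where neighbouring genes were also higher in G10 (medians 0.45, 0.40 and 0.39), and each difference exceeded that. DUSP4, the nuclear phosphatase of ERK, was at 76.5 and 88.7 CPM against 32.7 and 28.0 CPM (1.42). The Sprouty gene SPRY4 (0.00), the ETS factors ETV4 (-0.17) and ETV5 (0.09) and DUSP5 (0.23) did not pass, and KCNN4, a potassium channel, was lower in G10 (-0.95).

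Receptors and ligands upstream differed in both directions. Of 12 tested members of the EGF family 7 were higher in G10, the ligands AREG, EREG, NRG1, HBEGF and TGFA and the receptors EGFR and ERBB4, and 4 were lower, the receptors ERBB2 and ERBB3 and the ligands NRG2 and NRG4. AREG, amphiregulin, was at 13.5 and 14.7 CPM in G10 and 3.80 and 3.55 CPM in H3 (1.70), and EREG, epiregulin, at 46.5 and 44.3 CPM against 13.8 and 17.0 CPM (1.51). NRG1, the ligand of ERBB3, was at 110 and 99.8 CPM against 34.9 and 42.7 CPM (1.42), and its receptor ERBB3 at 52.2 and 50.015 CPM against 97.9 and 91.1 CPM (-0.87). ERBB2, among the most abundant transcripts here, was at 4410 and 4603 CPM in G10 and 6921 and 6313 CPM in H3 (-0.55 ± 0.06, SE). EGFR was at 321 and 296 CPM in G10 and 223 and 258 CPM in H3, well below the control at 571 CPM. Its difference (0.36; adjusted p = 0.00782, limma) did not pass without H3 replicate 1 (0.25; adjusted p = 0.209, limma).

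Of 25 other receptor tyrosine kinases and ephrins, 7 were higher and 10 lower, with a median of -0.29. AXL, the GAS6 receptor, was at 198 and 206 CPM in G10 against 59.4 and 61.3 CPM in H3 (1.73), and G10 was above the control at 52.0 CPM as well. FGFR1 was higher (0.96), and the ephrin receptor EPHA4 (-1.12) and the insulin receptor INSR (-0.96) were lower in G10. Of 21 immediate early and AP-1 genes 5 were higher (23.8%) and 4 lower (19%), beside 16.1% and 19.8% of all genes, and the lower calls numbered 7 without G10 replicate 2. BTG2, an antiproliferative gene, was at 7.05 and 7.59 CPM in G10 against 33.9 and 34.5 CPM in H3 (-2.08).

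Genes of the phosphoinositide pathway were called in both directions, at shares not far from those of all genes. Of 38 tested genes of SHIP2, PI3-kinase and AKT signalling, 10 were lower in G10 and 6 higher, with a median of -0.04, and the higher calls numbered 2 without H3 replicate 1. These shares, 26.3% lower and 15.8% higher, stood beside 19.8% and 16.1% over all genes. PIK3CA was at 37.5 and 35.98 CPM in G10 and 33.2 and 41.7 CPM in H3 (-0.02; adjusted p = 0.923, limma), AKT1 differed by 0.03 and AKT2 by -0.04, and at these 3 genes the clones overlapped. INPP5J, another inositol 5-phosphatase, was at 2.498 and 3.997 CPM in G10, 9.69 and 11.1 CPM in H3, beside 0.999 CPM in the control (-1.45). The class II kinase PIK3C2B was at 52.8 and 48.5 CPM against 114 and 117 CPM, with the control at 52.6 CPM (-1.18), and the regulatory subunit PIK3R1 at 25.5 and 24.3 CPM against 44.7 and 49.7 CPM (-0.89). Of 23 tested FOXO factors and targets, which AKT restrains, 9 were lower and 4 higher in G10. FOXO1 was at 14.49 and 11.6 CPM against 37.3 and 40.2 CPM (-1.51), and the target TXNIP went the other way (2.28).

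YAP and TAZ targets were higher in G10. YAP and its relative TAZ are coactivators that enter the nucleus in spread or stiffly anchored cells and act through TEAD factors. Of 26 tested genes 17 were higher and 2 lower, with a median of 0.37. Among the 17 the control lay nearer H3 at 9 and nearer G10 at 8. F3, tissue factor, was at 207 CPM in both G10 libraries and at 39.5 and 44.7 CPM in H3 (2.27 ± 0.09, SE; adjusted p = 3.59e-08, limma), with the control at 148 CPM. NT5E, which makes adenosine at the cell surface, was at 257 and 240 CPM against 81.5 and 89.1 CPM (1.53). CYR61 was at 156 and 165 CPM against 69.2 and 80.8 CPM (1.1), and ANKRD1 at 11.2 and 8.59 CPM against 2.80 and 3.20 CPM (1.44). At these 4 genes the clones did not overlap, and the control was near H3 for ANKRD1 and above G10 for NT5E.

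Matrix and mesenchymal genes leaned the same way. Of 22 tested mesenchymal genes 12 were higher in G10 and 2 lower, with a median of 0.52. At 8 of the 12 the control lay nearer H3, and at 4 nearer G10. THBS1, thrombospondin, was at 3424 and 3350 CPM in G10 and 1409 and 1535 CPM in H3 (1.2), CDH2, N-cadherin, at 188 and 164 CPM against 51.8 and 58.3 CPM (1.66), and CAV1, caveolin, at 748 and 678 CPM against 312 and 357 CPM (1.09). THBS1 was also high in D4, at 3245 CPM, while the control and G4 were below H3. VIM (0.19), ZEB1 (0.31), SNAI1 (0.30) and SNAI2 (0.18), commonly used markers of epithelial to mesenchymal transition, did not pass, and COL6A1 was lower in G10, at 1.099 and 1.299 CPM against 9.79 and 8.74 CPM (-2.22).

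Among proteases, 10 of 20 metalloproteinase and plasminogen activator genes were higher in G10 and 6 were lower. ADAM19, a shedding protease, was at 145 and 133 CPM in G10 and 27.1 and 34.0 CPM in H3 (2.15), and PLAU, urokinase, at 90.3 and 74.7 CPM against 36.03 and 43.9 CPM (1.03). MMP1, the interstitial collagenase, was low in both, at 3.15 and 1.85 CPM against 0.35 and 0.699 CPM (1.18), with the control at 103 CPM. Of 7 tested clade B serpins 5 were higher in G10, or 3 without H3 replicate 1; SERPINB2, an inhibitor of urokinase, was at 18.2 and 14.6 CPM against 8.39 and 8.89 CPM (0.84), both far below the control at 251 CPM.

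Genes of laminin-332, the anchor of basal cells, were higher in G10. LAMA3 was at 409 and 372 CPM in G10 against 229 and 240 CPM in H3 (0.73) and LAMB3 at 306 and 353 CPM against 216 and 200 CPM (0.66). The control stood higher, at 1065 CPM for LAMA3 and 953 CPM for LAMB3. Of 13 hemidesmosome genes 4 were higher and none was lower, CD151 among them (0.50), and without G10 replicate 1 or replicate 2 there were 8 or 7 higher calls. The difference of CD151, on chromosome 11, was equal to that of its neighbours (median 0.50). Of 14 other laminin and basement membrane genes 6 were lower in G10 and none was higher, or 3 higher without G10 replicate 1, with LAMB2 at 101 and 112 CPM against 263 and 245 CPM (-1.24).

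Squamous differentiation genes differed in both directions. Of 17 tested squamous transcription factors 9 were lower in G10 and 2 higher, with a median of -0.27. When each library was left out, this median ranged from -0.35 to -0.25. TP63 was lower (-0.49; adjusted p = 0.000892, limma), and GRHL3, which drives late differentiation, was at 3.35 and 2.35 CPM in G10 against 26.7 and 26.5 CPM in H3 (-2.86), with the control at 33.5 CPM. BNC1, a zinc-finger factor of basal cells, was higher, at 64.9 and 53.1 CPM against 12.5 and 16.1 CPM (1.98). SOX2 fell below the filter, at 1.55 and 0.949 CPM in G10 and 0.35 CPM in both H3 libraries, and was not tested.

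Keratins were mixed: of 13 tested, 5 were lower and 2 higher in G10, or 6 higher without G10 replicate 1. Besides KRT13, KRT4 (-1.41), KRT15 (-0.96) and KRT5 (-0.90) were lower, whereas KRT6A, a keratin of activated epithelium, was at 5.95 and 7.99 CPM in G10 and 6.05 and 4.75 CPM in H3 (0.31; adjusted p = 0.204, limma), and the clones overlapped far below the control at 909 CPM. Of 30 listed genes of the cornified envelope 19 were below the filter, and of the 11 tested 3 were higher and 1 lower. Of 20 tight junction genes 8 were lower and 2 higher, the former 5 without H3 replicate 2, with TJP3 at 1.55 and 2.35 CPM against 14.041 and 11.3 CPM (-2.22). Desmosome genes split 3 to 3 among 10 tested, with JUP lower (-0.84) and PKP2 higher (0.70) in G10.

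Developmental pathways differed gene by gene. Of 23 tested Notch genes 9 were lower and 4 higher in G10, with a median of -0.25. When each library was left out, this median ranged from -0.33 to -0.22. HEY1, a direct Notch target, was at 1.15 and 1.099 CPM in G10 against 12.1 and 11.5 CPM in H3 (-2.59), and the receptor NOTCH3 at 19.8 and 24.1 CPM against 68.5 and 56.8 CPM (-1.47), while RBPJ, the DNA-binding partner, was higher (1.01). Of 27 TGF-beta and BMP genes 9 were lower (33.3%) and 5 higher (18.5%), beside 19.8% and 16.1% of all genes. The BMP target ID2 was at 13.04 and 11.9 CPM against 51.9 and 56.6 CPM (-2.04), whereas FST, which binds activin, was at 21.7 and 23.1 CPM against 4.35 and 5.15 CPM (2.03) and the activin chain INHBA was higher (1.58). The higher calls numbered 8 without G10 replicate 1 and 3 without H3 replicate 1, and the lower calls 5 without H3 replicate 2. Of 29 WNT genes 10 were higher and 5 lower, the latter 2 without H3 replicate 1, and the secreted inhibitor DKK1 was higher beside WNT7A, at 93.5 and 100 CPM against 39.8 and 43.7 CPM (1.2).

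**Figure D4:**
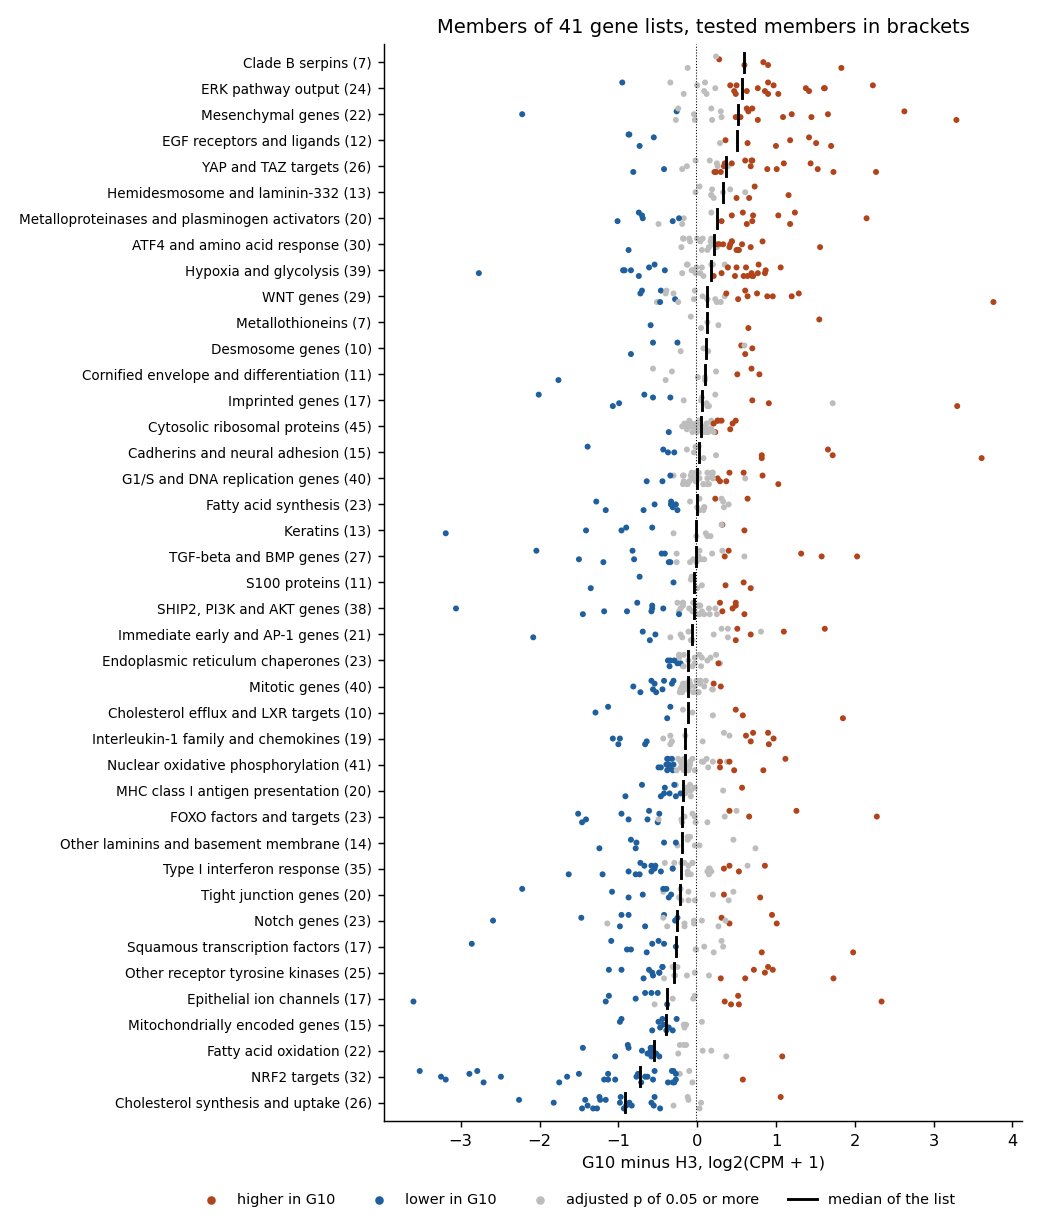
Difference between clones (G10 minus H3, log2(CPM + 1)) for every tested member of the gene lists shown, ordered by list median (black bars), with the median over all genes as a dotted line. Cholesterol synthesis (-0.91) and NRF2 targets (-0.73) lie lowest; clade B serpins (0.60) and ERK output (0.57) lie highest.

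Stress and immune genes gave smaller differences. Of 30 tested ATF4 and amino acid response genes 14 were higher and 1 lower in G10 (median 0.22), or 9 higher without H3 replicate 1. STC2, a secreted glycoprotein induced by this response, was at 115 and 116 CPM in G10 and 38.2 and 38.5 CPM in H3 (1.56), near the control at 123 CPM. Of 23 endoplasmic reticulum chaperones 6 were lower, and none of them passed without H3 replicate 1. Of 35 type I interferon genes 13 were lower in G10 and 4 higher, or 8 and 2 without H3 replicate 1 and 10 and 2 without H3 replicate 2. OAS1, a sensor of double-stranded RNA, was at 4.996 and 5.85 CPM against 20.5 and 17.3 CPM (-1.63), and BST2, tetherin, was at 32.8 and 32.1 CPM against 77.6 and 73.6 CPM (-1.2), although the control was at 0.3 CPM. Of 20 MHC class I genes 9 were lower, or 3 without H3 replicate 1, and 1 was higher.

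Among 39 hypoxia and glycolysis genes 16 were higher and 8 lower in G10 (median 0.18). VEGFA was at 125 and 121 CPM in G10 against 57.9 and 58.6 CPM in H3 (1.06), and the pH-regulating enzyme CA12 was at 5.25 and 3.75 CPM against 38.8 and 33.9 CPM (-2.77), below a control of 30.3 CPM. Of 40 mitotic genes 10 were lower and 2 higher, but 20 were lower without G10 replicate 1, and none was higher without either H3 replicate. PLK1, a kinase of mitotic entry, was one of the higher genes (0.30; adjusted p = 0.0167, limma), and it did not pass without H3 replicate 1 (0.38; adjusted p = 0.0541) or without H3 replicate 2 (0.23; adjusted p = 0.291), nor with the median of its neighbours subtracted (0.08; adjusted p = 0.541). Of 40 G1/S and replication genes 7 were higher (17.5%, near the 16.1% of all genes) and 3 lower (7.5%), or 11 higher and 6 lower without G10 replicate 1, 11 higher without G10 replicate 2 and 3 higher without H3 replicate 1.

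The differences were not spread evenly over the genome. Along the chromosomes, 243 windows of about 50 neighbouring genes averaging 5 CPM or more were formed from 12728 genes, and 35 had a median past 0.3 in absolute value, 25 of them higher and 10 lower in G10. All 14 windows of chromosome 11 were higher, with medians of 0.18 to 0.52. Of its 707 genes in windows 383 were higher in G10 and 46 lower, with a median of 0.39. Over the whole chromosome the median was 0.17 for G10 minus the control and -0.21 for H3 minus the control, but its parts differed. In windows up to 66345125, G10 minus the control lay at 0.27 to 0.71 and H3 minus the control at -0.24 to 0.57. From 66435075 onward the medians were -0.16 to -0.04 for G10 and -0.56 to -0.35 for H3. Windows of chromosome 8 from 47960185 to 106272899 lay at -0.39 to -0.42, and the median over chromosome 8 was -0.22. RNA levels do not measure gene copy number, which was not analysed here.

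The window with the largest median, chromosome 17 from 81239239 to 83095119 (0.52), holds ACTG1, P4HB and FASN among its most abundant genes. It was at 0.35 by G10 replicate 1 and at 0.68 by G10 replicate 2. Cytoplasmic actin, ACTG1, was at 1708 and 1840 CPM in G10 and 1290 and 1251 CPM in H3 (0.48). Chromosome 11 from 65111845 to 66345125 (0.52) holds CFL1, cofilin (0.43), SF3B2 (0.40), which did not pass without H3 replicate 2 (0.36; adjusted p = 0.0526, limma), and CAPN1, which did not pass (0.10). The third, chromosome 12 from 123152320 to 133214831 (0.51), holds RAN, the nuclear transport GTPase (0.51). With the median of the neighbours subtracted, ACTG1 (0.11), CFL1 (-0.09), SF3B2 (-0.00) and RAN (0.00) did not pass. Windows at gene-dense chromosome ends differed most between the G10 libraries. The first window of chromosome 19, from 198264 to 1863568, was at -0.06 by replicate 1 and 0.59 by replicate 2, so its median of 0.32 rests on replicate 2.

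**Figure D5:**
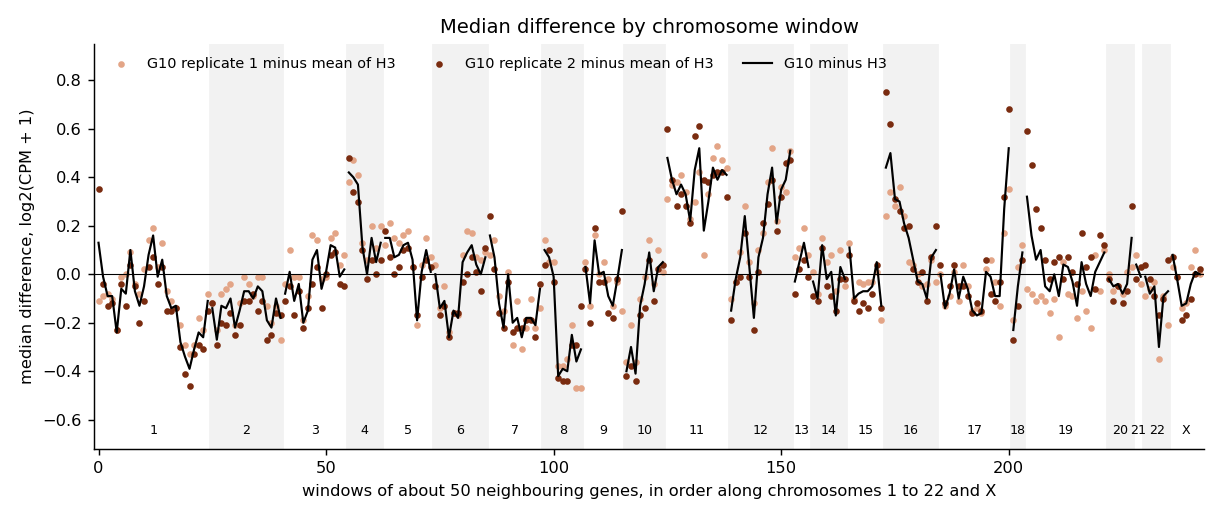
Median difference in log2(CPM + 1) of windows of about 50 neighbouring genes, in order along the chromosomes (numbers at the bottom). The black line is G10 minus H3, light and dark points use G10 replicate 1 or 2 alone; all 14 windows of chromosome 11 lie above 0, and the replicates part most at the starts of chromosomes 16 and 19.

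With the median of the 50 neighbouring genes subtracted, 2261 genes were higher and 2848 lower. In that fit 30 NRF2 targets and 21 cholesterol genes were lower, and 15 ERK output genes and 16 YAP and TAZ targets were higher. The corresponding numbers before subtraction were 28, 20, 16 and 17.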

How the data were processed

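RNA-seq of 2 libraries each from clones G10 and H3 was compared, with control, D4 and G4 libraries as reference levels. The table holds CPM values as deposited by the authors; STAR 2.5.3a, HTSeq and hg38 are named in the submitters' processing notes. Strand setting, annotation release and normalization beyond CPM are not given in the sources used here. Gene IDs were matched to GENCODE release 29 for 58039 of 58302 genes, and no sample column was left unused (0).

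Genes with at least 1 CPM in 2 of the 4 libraries were tested as log2(CPM + 1) with limma 3.58.1 (trend and robust, R 4.3.3), with Benjamini-Hochberg adjustment at 0.05. A count test had been planned for raw counts; as the unit was CPM and whole reads could not be recovered, limma was used, and limma-voom on estimated reads was an alternative. Depth comes from the steps between low values, and the floor is 3 reads divided by that depth. Tables and figures used Python 3.11.15, numpy 2.4.6, pandas 2.3.3 and matplotlib 3.10.9, and the fit was tested on simulated data.

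Named genes are a fixed set (INPPL1, PIK3CA, AKT1, AKT2, EGFR, TP63, SOX2, PLK1, KRT6A and CPT1A), the 15 largest differences each way with a mean of at least 5 CPM and no overlap, up to 4 passing members per list, and the 3 most abundant genes of the 3 windows with the largest medians. Further members named beside these were chosen after their values were seen. Some genes that meet these rules are not reported here. The members and lists were chosen with earlier results of these data known. Alternatives were other scalings, pseudocounts, filters, weights, all 10 libraries, each library left out, a replicate block, and subtraction of the median of 50 neighbouring genes. Same-numbered libraries did not deviate together (correlation -0.35).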

Additional observations from a re-analysis of the deposited data

How the results depend on the processing

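The numbers of genes higher and lower in G10 ranged from 1773 to 3526 and from 2162 to 3898 when each library was left out. Genes higher by 2-fold or more numbered 293 to 534 on leaving out a library, 502 with a pseudocount of 0.1 CPM, 127 with 5 CPM and 524 by limma-voom on estimated reads. Genes lower by 2-fold or more numbered 845, 245 and 886 under the same 3 settings. The cause of these shifts was not tested, except that a larger pseudocount shrinks every difference by construction. With the replicate block, 2752 genes were higher and 3123 lower, and INPPL1 stayed at -3.06. The labels do not pair the libraries; with crossed numbers, an alternative chosen after seeing the data, the numbers were 3332 and 3849. With the neighbour median subtracted, CD151 (-0.00), RPLP2 (-0.07), RPL7 (0.08), P4HB (-0.12), CFL1 (-0.09), CAPN1 (-0.32), SF3B2 (-0.00) and FASN (-0.20) changed sign, FASN passing neither before nor after. Of 189 named genes, 160 kept their direction and call under every alternative that tested them. The filter at a mean of at least 5 CPM tested only 172 of the 189. The count test on whole reads was not run. With 2 libraries per clone and 1 clone each, the comparison describes these lines, and low genes are limited by the floor of 3 reads.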

Other observations

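The imprinted neighbours IGF2 and H19 on chromosome 11 differed in opposite directions. H19, a noncoding RNA, was at 5.70 and 7.99 CPM in G10, 30.4 and 29.9 CPM in H3, beside 1.55 CPM in the control (-2.01), whereas IGF2 was higher in G10 (3.30). Of 17 tested imprinted genes 3 were higher (17.6%) and 6 lower (35.3%) in G10, beside 16.1% and 19.8% of all genes. The metal-binding protein gene MT2A was at 131 and 164 CPM in G10, 53.8 and 45.4 CPM in H3, beside 40.9 CPM in the control (1.55), and of 7 metallothioneins 2 were higher and 1 was lower. Reads may be shared among these near-identical genes. The sodium channel subunit SCNN1A was at 40.3 and 38.7 CPM against 89.5 and 84.6 CPM (-1.12), and the calcium-binding protein S100P at 99.2 and 79.2 CPM against 232 and 222 CPM (-1.35).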
